A study of Bos taurus with 4 samples.

Results

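Annexins are a family of proteins that bind phospholipid membranes in a calcium-dependent manner. Each carries a conserved core of annexin repeats behind a variable N-terminal tail, and the tail binds partners such as the small S100 proteins. Family members are known for organising the membrane-cytoskeleton interface, for vesicle traffic and exocytosis, and for repair of the plasma membrane, and several are abundant in epithelia. In the blastocyst, the trophectoderm (TE) is the epithelium that encloses the cavity, and the inner cell mass (ICM) is the group of cells inside it that gives rise to epiblast and hypoblast.

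The family was taken as all genes whose symbol in the array annotation begins with ANXA and a digit. This gave 9 of the 12552 genes and 24 of the 43653 probes measured, namely ANXA2, ANXA3, ANXA4, ANXA6, ANXA7, ANXA8, ANXA10, ANXA11 and ANXA13. To stand for a gene, the probe with the brightest raw signal was selected, by the mean over both channels and all arrays, and the other probes of the gene were examined beside it. For ANXA8 and ANXA10 there was 1 probe each. The RefSeq gene table lists ANXA8 as a synonym of ANXA8L1, so that the probe may not separate near-identical copies. A further 3 annexins of that table, ANXA1, ANXA5 and ANXA9, had no probe under their names and were not analysed here.

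Bovine blastocysts were produced by maturation, fertilisation and culture in vitro and collected on day 9. MAPK-inhibited ICMs came from embryos cultured with PD0325901, an inhibitor of the kinase MEK in the MAPK pathway, and control ICMs came from embryos cultured with its solvent DMSO. ICMs were dissected by hand and combined per treatment, so that each sample averages over embryos and attached TE cells can remain. Each group had 2 samples, a and b, each hybridised on a two-colour array against RNA of 1 pool of whole blastocysts, with the ICM sample in Cy3 for a and in Cy5 for b. The values below are log2 ratios of ICM sample over pool, on which a value of 0 means equal signal, and the difference between groups is MAPK-inhibited minus control ICM.

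The arrays differed in quality. A spot was called uneven where the SD of its pixels exceeded 0.5 of their mean in either channel, and this applied to 34.2% and 10.3% of probes on MAPK-inhibited arrays a and b, against 0.220% and 0.101% on control arrays a and b. Among the 24 annexin probes, 12 were uneven on MAPK-inhibited array a and 1 on MAPK-inhibited array b, with 0 on either control array. The median raw signal of the ICM channel was 110 and 133 on the MAPK-inhibited arrays and 167 and 175 on the control arrays. Annexin probes above the negative control spots in the ICM channel numbered 20 of 24 on MAPK-inhibited array a and 24 of 24 on each of the other arrays. For the brightest annexin probes that were uneven on MAPK-inhibited array a, the difference between groups is therefore also given within replicate b or without that array. The labelled tissue was checked with fixed marker lists. Here a gene was placed above or below the pool by its group mean. All 5 epiblast genes measured were above the pool in both groups, with a median log2 ratio of 0.61 in MAPK-inhibited ICM and 0.79 in control ICM. However, ZIC2 was at -0.21 on MAPK-inhibited array a. That spot was uneven, and its ICM signal of 19 was not above the negative control spots (cutoff 48). LIN28B was dim (mean raw signal 83) and near the pool, at means of 0.04 and 0.02. Of 12 hypoblast genes measured, 9 were below the pool in MAPK-inhibited ICM and 4 in control ICM. Of 10 TE genes measured, 5 were below the pool in MAPK-inhibited ICM and 6 in control ICM, with a median of -0.03 in MAPK-inhibited ICM and -0.18 in control ICM. TFAP2C changed sign with the dye, at -0.81 and 1.04 in MAPK-inhibited ICMs a and b, and -1.40 and 1.75 in control ICMs a and b. GATA2 was at -1.66 on MAPK-inhibited array a, where its spot was uneven, and at -0.72 on MAPK-inhibited array b. CDX2, KRT8 and KRT18 of the TE list and POU5F1 of the epiblast list were among the genes not measured.

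**Figure D1:**
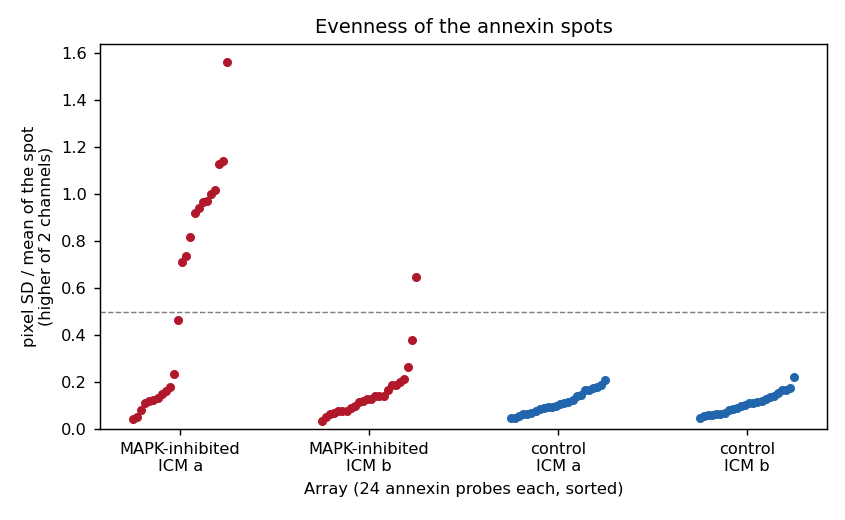
Pixel SD divided by the mean of the spot (vertical axis, no unit, higher of the 2 channels) for the 24 annexin probes on each array, sorted within the array. Above the dashed line at 0.5 lie 12 probes on MAPK-inhibited array a and 1 on MAPK-inhibited array b, and none of the control probes.

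Annexin transcripts were in general less abundant in ICM than in the whole blastocyst. By the brightest probe, 6 of 9 annexin genes (ANXA3, ANXA4, ANXA6, ANXA7, ANXA8 and ANXA11) had a ratio below 0 on all 4 arrays, as did 15.7% of all genes. Among single probes this held for 14 of 24, against 15.2% of all probes. The count was 8 of 9 genes on both MAPK-inhibited arrays (30.3% of all genes) and 7 of 9 on both control arrays (28.8%). These shares include dim genes, whose ratios the background correction draws towards 0, and were not matched for brightness. The median log2 ratio of the 9 genes was -0.19 and -0.45 on MAPK-inhibited arrays a and b, and -0.26 and -0.22 on control arrays a and b. The genes were chosen by symbol with this measured ratio, ICM over pool, in view, so it is given as a description without a test. Fewer cells of a type and less RNA per cell cannot be told apart in such samples, and the pool was a common reference and not a group of replicates.

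ANXA3, a calcium-dependent membrane-binding annexin described in human neutrophils, had the lowest mean ratio over the 4 arrays, although ANXA8 was lower in control ICM. Its log2 ratios were -0.64 and -0.91 in MAPK-inhibited ICMs a and b, and -0.59 and -0.53 in control ICMs a and b. ICM signal was thus below the pool in every sample, at 0.584-fold of the pool in MAPK-inhibited ICM and 0.680-fold in control ICM. In raw spot means, this corresponded to 3770 and 2414 in the MAPK-inhibited ICM channel beside 9473 and 4208 in the pool channel of the same arrays. For the control arrays, the ICM channel read 6259 and 6383 and the pool channel 9134 and 8739. Over the 4 arrays ANXA3 stood at rank 55 from the lowest among the 12552 genes. The other ANXA3 probes gave similar ratios, which ranged from -0.96 to -0.47 for one and from -0.95 to -0.50 for the other.

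ANXA8, known from epithelia and late endosomes, was next, at rank 89. Its log2 ratios were -0.47 and -0.64 in MAPK-inhibited ICMs a and b, and -0.51 and -0.77 in control ICMs a and b. The 2 groups overlapped, with 0.681-fold of the pool in MAPK-inhibited ICM and 0.640-fold in control ICM. The raw spot means were 2607 and 7569 in the MAPK-inhibited ICM channel, with 5552 and 9930 for the pool beside them. Those of the control ICM channel were 9604 and 8536, with 13805 and 13328 for the pool.

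ANXA11, which binds the calcium sensors PDCD6 and S100A6 through its long N-terminal tail and in human and rat cells tethers RNA granules to lysosomes, followed at rank 333. The log2 ratios of its brightest probe were -0.43 and -0.61 in MAPK-inhibited ICMs a and b, and -0.20 and -0.42 in control ICMs a and b. All samples lay below the pool and the groups did not overlap, although MAPK-inhibited a and control b differed by little. Its probes disagreed. The next brightest, with a mean raw signal of 576, lay near the pool, from -0.10 to -0.02. The probe with a mean raw signal of 260 was further below the pool on all arrays, from -0.43 to -0.29. That with a mean raw signal of 321 had a mean log2 ratio of 0.22 in MAPK-inhibited ICM and 0.05 in control ICM. The dimmest had a mean of -0.10 over the 4 arrays.

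The other annexins lay closer to the pool. ANXA2, which forms a complex with S100A10 at the plasma membrane and on endosomes, had log2 ratios of -0.40 and -0.13 in MAPK-inhibited ICMs a and b, and -0.38 and 0.11 in control ICMs a and b. Both groups had their higher ANXA2 value in replicate b, which was also the Cy5 orientation. The replicates of a group thus differed more than the groups. This was the brightest annexin probe, with a mean raw signal of 26766. The next ANXA2 probe, with a mean raw signal of 8334, had -0.28 and -0.23 in MAPK-inhibited ICMs a and b. In control ICMs a and b it had 0.13 and -0.19. The dimmest ANXA2 probe, with a mean raw signal of 164, ranged from -0.26 to -0.06.

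ANXA4, an epithelial annexin involved in membrane repair, had log2 ratios of -0.08 and -0.54 in MAPK-inhibited ICMs a and b, and -0.04 and -0.22 in control ICMs a and b. ANXA6, whose repeat core is duplicated, had -0.11 and -0.32 in MAPK-inhibited ICMs a and b, and -0.16 and -0.31 in control ICMs a and b. ANXA7 (synexin), isolated from adrenal chromaffin tissue as a protein that aggregates secretory granules, had -0.19 and -0.45 in MAPK-inhibited ICMs a and b, and -0.29 and -0.18 in control ICMs a and b. All of these values, from the brightest probes, were below 0, and for each of these genes the groups overlapped. The other, dimmer probes had means over the 4 arrays of -0.13, 0.01 and -0.02 for ANXA4. These means were -0.22 and -0.10 for ANXA6 and -0.06 for ANXA7.

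ANXA13, an annexin of intestinal epithelium with a myristoylated form, had log2 ratios of -0.16 and -0.31 in MAPK-inhibited ICMs a and b, and -0.26 and 0.05 in control ICMs a and b. Its probes disagreed in sign. The other ANXA13 probe, dim at a mean raw signal of 98, was above the pool on all arrays, with means of 0.19 in MAPK-inhibited ICM and 0.21 in control ICM. ANXA10, which in human has lost most of its calcium-binding sites, had 0.06 and 0.05 in MAPK-inhibited ICMs a and b, and -0.03 and -0.03 in control ICMs a and b. Its probe was dim, with a mean raw signal of 142, and its ratios were near 0 on all arrays. In the order of the mean ratio over 4 arrays (ANXA3, ANXA8, ANXA11, ANXA7, ANXA6, ANXA4, ANXA2, ANXA13, ANXA10), the ranges of each pair of neighbours overlapped.

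**Figure D2:**
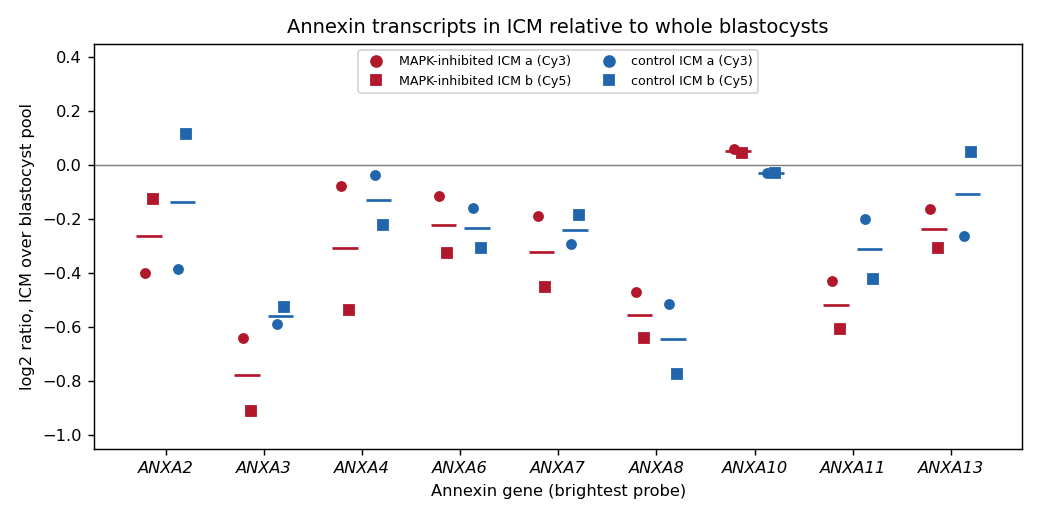
Log2 ratio of ICM over blastocyst pool (vertical axis) of the brightest probe of each of the 9 annexin genes (horizontal axis), with MAPK-inhibited ICM in red left of control ICM in blue, circles for replicate a (ICM in Cy3), squares for replicate b (ICM in Cy5) and a bar at the group mean. ANXA3 and ANXA8 lie lowest in both groups, at means of -0.78 and -0.55 in MAPK-inhibited ICM and -0.56 and -0.64 in control ICM.

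The study asked which genes respond in the ICM when MAPK signalling is blocked. For the annexins, no difference between MAPK-inhibited and control ICM passed the test. With limma and Benjamini-Hochberg adjustment over all probes, 0 of 24 annexin probes and 0 of 9 annexin genes had an adjusted p under 0.05, as was the case for 0% of all 43653 probes, among which the lowest adjusted p was 0.263. The test also missed NANOG, which the study reported as raised after MAPK inhibition by array and qRT-PCR. The NANOG difference was 1.34 here (SE 0.07, limma, adjusted p = 0.266). A lack of a call thus does not show that a gene is unchanged. At an unadjusted p under 0.05, 2 annexin probes were lower (4.63% of all probes) and 1 was higher (5.5% of all probes). By the brightest probe this was 1 gene of 9 lower (5.43% of all genes) and 0 higher (8.76% of all genes). These shares rest on so few members that they say little about annexins as a group.

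By size, the 9 differences ranged from -0.22 to 0.09, with a median of -0.13, against 0.01 for all genes. Differences below 0 were found for 6 of 9 genes (48% of all genes) and for 16 of 24 probes (50.3% of all probes). They were below 0 in both replicate a and replicate b for 4 genes, ANXA2, ANXA3, ANXA4 and ANXA11 (28.4% of all genes), and above 0 in both for ANXA8 and ANXA10 (31.5% of all genes). Of single probes, 9 of 24 were below 0 in both replicates (28.9% of all probes) and 3 above 0 in both (27.9%). The median of the 9 differences was -0.20 without MAPK-inhibited replicate a and 0.05 without MAPK-inhibited replicate b, so that its sign depended on replicate b. With median centring of the arrays in place of loess the median of the 9 differences was -0.27, and ANXA6 and ANXA8 then lay at -0.17 and -0.04.

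For ANXA3, both MAPK-inhibited ratios were below both control ratios, with means of -0.78 ± 0.19 in MAPK-inhibited ICM and -0.56 ± 0.04 in control ICM (SD, n = 2 each). The same order of all values was found for ANXA11, as for 17.5% of all genes, and for 6 of 24 annexin probes (18.3% of all probes). The ANXA3 difference was -0.22 (SE 0.11, 95% interval -0.53 to 0.09) and did not pass the test (limma, adjusted p = 0.616). It was -0.05 within replicate a and -0.38 within replicate b. It was -0.35 without MAPK-inhibited replicate a, -0.084 without MAPK-inhibited replicate b and -0.44 with median centring (adjusted p = 0.256). The brightest ANXA3 spot was uneven on MAPK-inhibited array b, whereas the other ANXA3 probes were uneven on MAPK-inhibited array a. On array b, where they were even, these probes had log2 ratios of -0.96 and -0.95, which was 0.39 and 0.45 below the control ICM of the same replicate.

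One of them, with a mean raw signal of 1531, was the annexin probe with the most negative difference. It had log2 ratios of -0.77 and -0.96 in MAPK-inhibited ICMs a and b, and -0.47 and -0.57 in control ICMs a and b. All MAPK-inhibited values were below the control values, and the difference was -0.35 (SE 0.07, limma, unadjusted p = 0.010, adjusted p = 0.353). With spot medians in place of spot means it was -0.16, and without background correction it was -0.45 (adjusted p = 0.327). The dimmest ANXA3 probe, with a mean raw signal of 415, had a difference of -0.19, which was 0.06 with spot medians and -0.51 without background correction (adjusted p = 0.279), so that its direction depended on the processing.

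ANXA11 was the gene with the smallest unadjusted p by its brightest probe. Its mean log2 ratio was -0.52 ± 0.13 in MAPK-inhibited ICM and -0.31 ± 0.16 in control ICM (SD, n = 2 each), a difference of -0.21 (SE 0.07, limma, unadjusted p = 0.046, adjusted p = 0.483). Without the term for dye and replicate, the ANXA11 SE was 0.12 and its unadjusted p 0.146 (limma), above the 0.123 of ANXA3. The difference was alike in both dye orientations, at -0.23 within replicate a and -0.18 within replicate b. It was -0.30 without MAPK-inhibited replicate a, where its spot was uneven, and -0.09 without control replicate a. The other 4 ANXA11 probes did not show it, with differences of 0.01, 0.17, -0.05 and 0.08, and the mean of all 5 probes differed by -0.00067 between the groups.

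ANXA8 differed by 0.09 (SE 0.07, 95% interval -0.12 to 0.30, limma, adjusted p = 0.773), with means of -0.55 ± 0.12 in MAPK-inhibited ICM and -0.64 ± 0.18 in control ICM (SD, n = 2 each). The ANXA8 spot was uneven on MAPK-inhibited array a, and the difference was 0.13 within replicate b, 0.0044 without that array and 0.02 with spot medians. ANXA2 differed by -0.13 (SE 0.09, 95% interval -0.38 to 0.13, limma, adjusted p = 0.736), with a spot that was uneven on MAPK-inhibited array a. This ANXA2 value was 0.01 without MAPK-inhibited replicate a, -0.31 with spot medians (unadjusted p = 0.017, adjusted p = 0.411) and -0.27 with median centring. The other ANXA2 probes differed by -0.22 and -0.10 (limma, adjusted p = 0.625 and 0.790). For both ANXA2 and ANXA8 the interval includes 0. Without the term for dye and replicate the SE was wider, at 0.20 for ANXA2 and 0.12 for ANXA8. A change in either direction, also beyond these intervals, therefore remains possible.

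ANXA4 differed by -0.18 by its brightest probe, of which -0.04 was found within replicate a and -0.32 within replicate b, and by 0.00, -0.02 and -0.07 by its other probes. This brightest ANXA4 spot was even on all arrays. ANXA6 differed by 0.01, ANXA7 by -0.08, ANXA10 by 0.08 and ANXA13 by -0.13, with adjusted p from 0.784 to 0.973 in limma. The ANXA7 and ANXA13 spots were uneven on MAPK-inhibited array a, without which the differences were -0.21 for ANXA7 and -0.20 for ANXA13. ANXA10 was the gene for which both MAPK-inhibited ratios exceeded both control ratios (20% of all genes), by less than 0.1 and at a dim spot.

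The annexin probe with the highest difference was a second ANXA6 probe, with a mean raw signal of 435. Its log2 ratios were 0.09 and -0.18 in MAPK-inhibited ICMs a and b, and -0.32 and -0.46 in control ICMs a and b. The groups did not overlap, as for 2 of 24 annexin probes with higher MAPK-inhibited values (17.2% of all probes), and differed by 0.35 (SE 0.08, limma, unadjusted p = 0.012, adjusted p = 0.363). On MAPK-inhibited array a, this spot was the most uneven of all annexin spots, with a pixel SD of 1.56 times its mean. With spot medians the difference was 0.0064, and without MAPK-inhibited replicate a it was 0.21. The brightest ANXA6 probe, which was even on all arrays, had the difference of 0.01 given above.

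Across probes, the 11 that were even on all arrays had differences from -0.22 to 0.08 with a median of -0.02, of which 6 were negative and 5 positive. The 13 that were uneven on an array ranged from -0.35 to 0.35 with a median of -0.10, of which 10 were negative and 3 positive. The annexin differences of the largest size, in either direction, thus came from probes with an uneven spot, and the part of spot quality in them was not tested.

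**Figure D3:**
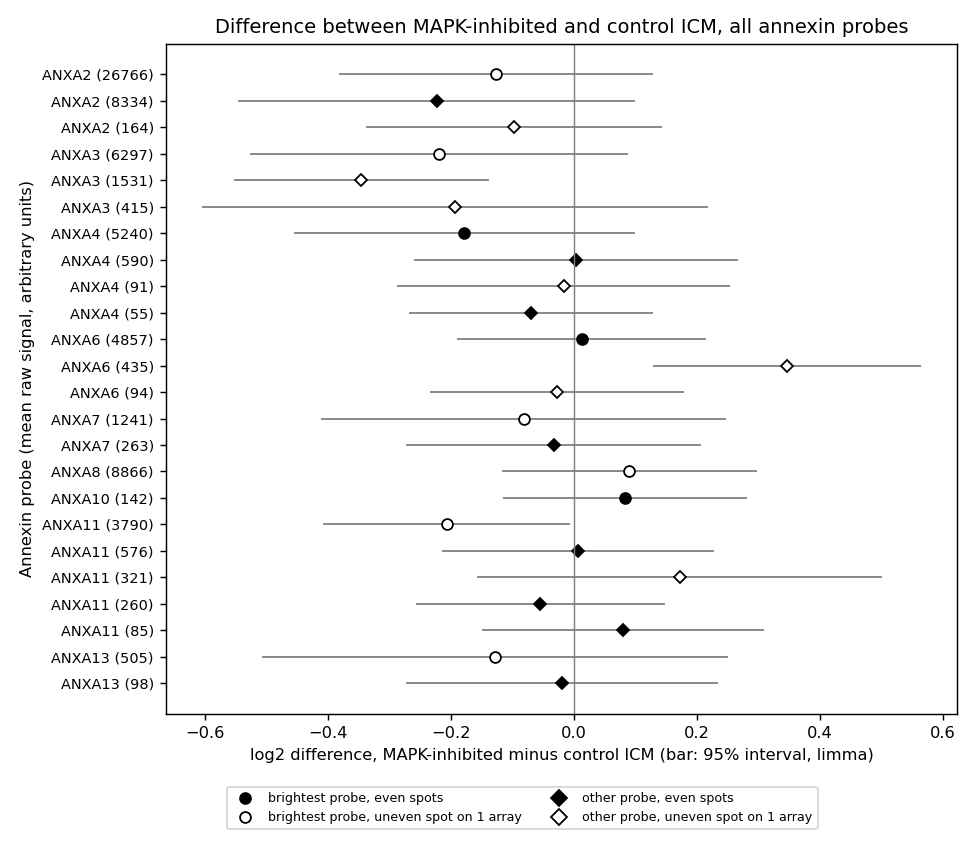
Log2 difference between MAPK-inhibited and control ICM (horizontal axis) for the 24 annexin probes (vertical axis, with mean raw signal in arbitrary units); bars are 95% intervals from limma, circles the brightest probe of a gene, diamonds other probes, and open symbols probes uneven on an array. Differences range from -0.35 for an ANXA3 probe to 0.35 for an ANXA6 probe, both with open symbols, and filled symbols range from -0.22 to 0.08.

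**Figure D4:**
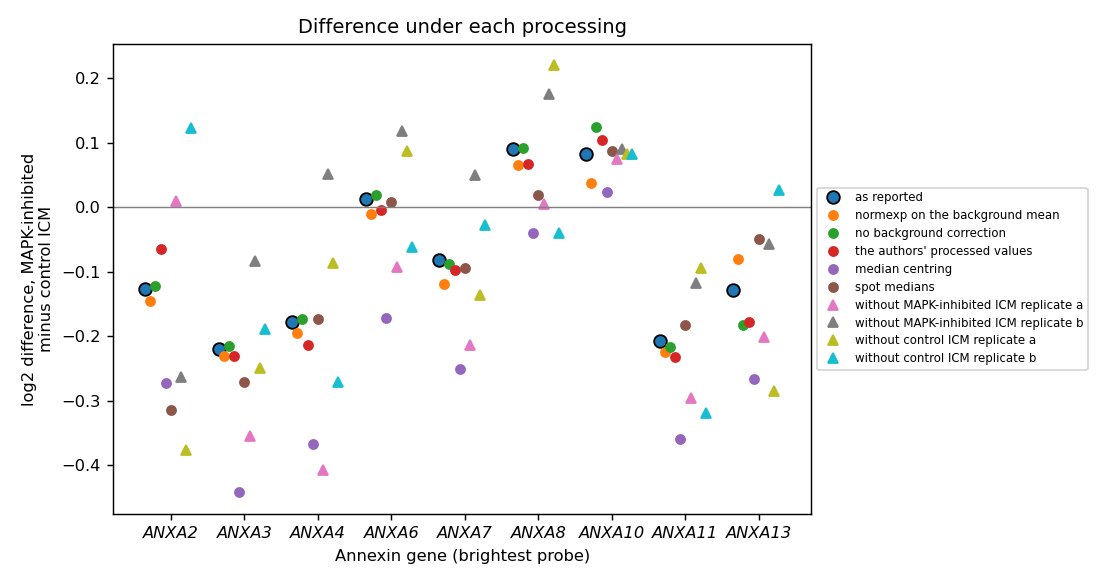
Log2 difference between MAPK-inhibited and control ICM (vertical axis) of the brightest probe of each annexin gene (horizontal axis) as reported, under other processing (circles) and with an array left out (triangles). ANXA3 and ANXA11 stay below 0 and ANXA10 above 0 in all settings drawn, whereas ANXA2 ranges from -0.38 to 0.12.

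Annexins act with partner proteins, and 22 of 28 listed partners were measured, among them S100 proteins, calpains, membrane repair proteins and plasminogen activators. Their median difference was 0.02, with 10 negative and 12 positive, and 0 passed the adjusted test in either direction. At an unadjusted p under 0.05, 4 were lower and 5 higher, beside the 5.43% and 8.76% of all genes given above. Their median log2 ratio to the pool was -0.02 in MAPK-inhibited ICM and -0.02 in control ICM, with 12 partners below the pool in MAPK-inhibited ICM and 13 in control ICM.

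S100A10, the light chain of the ANXA2 complex, had log2 ratios of -0.60 and -0.75 in MAPK-inhibited ICMs a and b, and -0.36 and -0.17 in control ICMs a and b. All samples were below the pool (15.7% of all genes), and both MAPK-inhibited ratios were below both control ratios (17.5% of all genes). The S100A10 difference was -0.41 (SE 0.11, limma, adjusted p = 0.412). Its spot was uneven on MAPK-inhibited array a, and the difference was -0.23 within replicate a and -0.58 within replicate b.

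PLAU, the urokinase plasminogen activator, had log2 ratios of -1.28 and -1.36 in MAPK-inhibited ICMs a and b, and -0.47 and -0.66 in control ICMs a and b. PLAT, the tissue plasminogen activator that binds ANXA2, lay on the other side of the pool, with 1.26 and 1.53 in MAPK-inhibited ICMs a and b, and 0.55 and 0.57 in control ICMs a and b. The differences were -0.76 for PLAU (SE 0.07, limma, adjusted p = 0.270) and 0.84 for PLAT (SE 0.10, limma, adjusted p = 0.274), and neither passed the test. The PLAU spot was uneven on MAPK-inhibited array b, and the PLAT spot was even on all arrays.

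CAPN2, the large subunit of a calcium-dependent protease that takes part in membrane repair, differed by -0.65 (SE 0.07, limma, adjusted p = 0.274), with means of -0.68 ± 0.04 in MAPK-inhibited ICM and -0.03 ± 0.03 in control ICM (SD, n = 2 each). S100B, a calcium sensor of the S100 family, had the largest partner difference, at 1.71 (SE 0.08, limma, adjusted p = 0.263), with means of 2.23 ± 0.16 in MAPK-inhibited ICM and 0.52 ± 0.05 in control ICM (SD, n = 2 each). The study, which used another model, called S100B higher after MAPK inhibition. S100A4, which also binds ANXA2, differed by 0.35 (SE 0.07, limma, adjusted p = 0.338). The differences of CAPN2 and S100B exceeded those of all 9 annexin genes, and the S100B and S100A4 spots were uneven on MAPK-inhibited array a. Within replicate b the differences were 1.63 for S100B and 0.35 for S100A4.

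Markers of the cell types in the samples were followed because the share of TE, epiblast and hypoblast cells may differ between the groups. The TE list had a median difference of -0.02, with 5 of 10 genes negative, and log2 ratios from -1.19 to 0.26 in MAPK-inhibited ICM and from -0.67 to 0.45 in control ICM. The epiblast list had a median difference of 0.08, with 4 of 5 genes positive, and the hypoblast list of -0.17, with 11 of 12 genes negative. No gene of these lists passed the adjusted test (limma). The TE median was thus close to 0, with 5 genes negative and 5 positive. The sign of the annexin median depended on MAPK-inhibited replicate b. The part of cell composition in the annexin values was not tested.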

How the data were processed

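For each of the 4 arrays, the authors deposited spot intensity values, the mean and median of the pixels and of the local background in each channel, which were not normalized. They also deposited log2 ratios that, per the study's methods, had been loess-normalized and corrected for gene-specific dye bias. From their regression on the scanner values, these were ratios of ICM over pool, with column medians of 0.02, 0.01, 0.00 and 0.01 for MAPK-inhibited a and b and control a and b. How they were centred stays unknown, and they were used as an alternative.

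Spot means were corrected with the local background median by normexp (offset 50), since the local background mean reached 28589, and normalized by loess within arrays, with 1567 control spots at weight 0. The correction draws log2 ratios of dim spots towards 0. All 43653 probes entered a limma fit (limma 3.58.1, R 4.3.3) on group and dye, which left 1 residual degree of freedom beside 2.90 prior ones, and p-values were two-sided. Dye orientation is the same split as the replicate letter, and its term therefore acts as the replicate block. Across probes, same-letter arrays deviated from their group means with a correlation of r = 0.454. The study describes its replicates as biological. Whether they were separate cultures is not given in the labels. With the replicate block, p-values rest on how far the group difference varied between replicates a and b, and on the prior. They do not cover the whole spread between these samples. In addition, 2 arrays per group limit the precision. Above background means above the 95th percentile of 757 negative control spots.

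The platform annotation gave 1 symbol to 27952 probes, several to 0 and none to 15701. No genome was used, and neither positions nor probe sequences are given. Named genes were all annexins by brightest probe, their other probes, and, per direction, the 3 partners of smallest unadjusted p. Members and lists were chosen with earlier results of these data known. The model was tested on simulated data. Alternatives were other background corrections, the deposited ratios, median centring, no dye term, a filter on dim probes, the mean of all probes, leaving out each array and, chosen after seeing the data, spot medians.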

Additional observations from a re-analysis of the deposited data

How the results depend on the processing

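The count of annexin probes past the test was 0 under each alternative run, including the fit with no replicate block, in which ANXA3 and ANXA11 had an adjusted p of 0.818 and 0.848. Over the whole array the count was 0 with the reported settings, 43 without background correction, 319 with the authors' processed values, and 0 to 101 with an array left out (42 without MAPK-inhibited replicate a and 101 without MAPK-inhibited replicate b). With an array left out, the dye term could not be fitted and the lone sample of a group was assumed to vary like the other group.

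The median control ratio of the 9 genes to the pool was -0.18 with median centring and -0.14 with the mean of all probes, against -0.23 as reported, and -0.26 to -0.22 with an array left out. The median difference was -0.06 with the mean of all probes and -0.09 with spot medians. Uncalled differences near 0 changed sign. That of ANXA6 was -0.010 with the background mean, -0.0044 with the authors' values and -0.17 with median centring, and that of ANXA8 was -0.040 with median centring. With an array left out, the ranges were -0.38 to 0.12 for ANXA2, -0.35 to -0.084 for ANXA3, -0.32 to -0.09 for ANXA11, -0.41 to 0.051 for ANXA4, -0.093 to 0.12 for ANXA6, -0.21 to 0.050 for ANXA7, -0.040 to 0.22 for ANXA8 and -0.28 to 0.027 for ANXA13. The cause of these shifts was not tested. The shift of the median of all probes was at most 0.01 under any setting. Low signal over background limits the dim ANXA10 probe and the dimmer probes of ANXA2, ANXA4, ANXA6, ANXA11 and ANXA13, for which a change could not be resolved.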
